A study of Mus musculus with 9 samples.

Results

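The genes described are 7 genes of bile acid uptake, intracellular carriage, sensing and export, namely Fabp6, Slc10a2, Nr1h4, Fgf15, Nr0b2, Abcc2 and Abcc3, among 15887 genes named on the arrays. They were chosen by name after the wide spread of Fabp6 over the mice had been seen in these data, so that this spread is given as a description. Gene symbols in the array files named 6 of the 7, and the probe of Abcc3, which carries no symbol, was named by its RefSeq accession. Each gene has 1 probe. The data are 9 single-colour arrays read by chemiluminescence, each with jejunal RNA of 1 male OF1 mouse (an outbred stock) aged 7 weeks. All mice came from generation 3 of a feeding trial, and 3 mice each had been given feed B (numbers 7, 8, 10), feed K (numbers 1, 3, 4) or feed G (numbers 4, 8, 11). What the feed letters stand for is not given in the sources used here, so that none of the feeds serves as a control here. The tissue was a short segment around the middle of the small intestine, taken after food had been withheld for some hours of the light phase, and any effect of the hour of sampling cannot be told apart from the feed, since the hour is unknown.

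Bile acids are made in the liver, secreted into the duodenum and reclaimed mainly in the ileum, the last section of the small intestine. There the transporter encoded by Slc10a2 takes them up from the lumen, the protein encoded by Fabp6 carries them through the enterocyte, and the heteromer of the Slc51a and Slc51b products releases them towards the blood. Inside the cell they activate the nuclear receptor FXR, encoded by Nr1h4, whose intestinal targets include Fabp6, Fgf15, Nr0b2, Slc51a and Slc51b. Fgf15 encodes a hormone that lowers bile acid synthesis in the liver, and Nr0b2 encodes the co-repressor SHP. The export pumps encoded by Abcc2, in the apical membrane, and Abcc3, in the basolateral membrane, move conjugated compounds, bile acids among them.

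The sequences before the starts of Fabp6 and Slc10a2 are shown because these 2 genes had the widest spread of the members that were tested and are known targets of different regulators. Each is the stretch of 250 bases upstream of the transcript start in RefSeq (GRCm38.p6), read 5′ to 3′ on the strand of the gene, chr11:43601563-43601812 (minus strand) for Fabp6 and chr8:5105288-5105537 (minus strand) for Slc10a2. Capitals mark matches to 2 palindromic motifs, which read the same on both strands and were searched with up to 2 mismatches at their 12 fixed letters. In the Fabp6 window the capitals are matches to AGGTCANTGACCT, the inverted repeat with a spacer of 1 base (IR-1) that FXR is known to bind, and in the Slc10a2 window a match to GTTAATNATTAAC, the motif of HNF1 factors.
Fabp6: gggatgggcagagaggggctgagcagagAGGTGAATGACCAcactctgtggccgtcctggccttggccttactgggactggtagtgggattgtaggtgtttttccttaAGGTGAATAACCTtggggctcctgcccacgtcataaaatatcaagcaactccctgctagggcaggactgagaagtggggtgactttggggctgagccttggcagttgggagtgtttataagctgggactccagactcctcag
Slc10a2: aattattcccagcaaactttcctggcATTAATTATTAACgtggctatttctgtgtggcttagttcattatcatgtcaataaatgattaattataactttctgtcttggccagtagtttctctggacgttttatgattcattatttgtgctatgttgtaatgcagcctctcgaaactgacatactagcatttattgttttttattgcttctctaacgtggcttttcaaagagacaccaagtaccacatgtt
The first match of Fabp6 begins 222 bases and the second 142 bases upstream of the start, and both have 2 mismatches. The match of Slc10a2 begins 224 bases upstream and has 1 mismatch. Of 32851 promoter windows of the same length, 0.959% held a match to IR-1 and 1.24% a match to the HNF1 motif. Nr1h4 and Abcc2 each had 1 match to the HNF1 motif with 2 mismatches, and neither motif matched in the windows of Nr0b2, Slc51a or Slc51b. Fgf15 and Abcc3 were not searched. The motifs and the limit on mismatches were chosen after matches in these windows had been seen, and a match describes the letters only.

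The labelled tissue was checked against markers of enterocytes, the absorptive cells of the epithelium. Of 8 markers, 6 had a probe and 5 were detected on all 9 arrays, where detected means that the signal-to-noise ratio reached 3. Vil1, of the microvillus core, had a log2 signal of 17.89 ± 0.19 (SD, n = 9 mice), and Fabp2, a fatty acid binding protein of the whole small intestine, of 20.37 ± 0.30 (SD, n = 9). Akp3 was detected on 0 arrays. Of the pancreatic acinar markers with a probe, Pnlip and Prss2 were detected on 0 arrays, Ctrb1 and Cel on 1 and Amy2a5 on 2, and the summed signal of the 5 was between 303.4 and 760.9 over the mice. The share of probes detected was between 33.7% and 48.1% per array. It was lowest in mouse 8 (33.7%) and mouse 7 (36.7%) on feed B, and was 46.4% or more in all mice on feed G.

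Fabp6 had the widest spread of the members. On feed B its log2 signal was 15.81 (mouse 7), 4.67 (mouse 8) and 17.84 (mouse 10). On feed K it was 8.92 (mouse 1), 12.19 (mouse 3) and 11.81 (mouse 4), and on feed G 8.10 (mouse 4), 8.96 (mouse 8) and 19.51 (mouse 11). The highest and the lowest mouse were thus on different feeds, the mice of feeds B and G enclosed all those of feed K, and the feeds overlapped throughout. Fabp6 was detected in 8 of 9 mice. In mouse 8 on feed B its signal-to-noise ratio was -1.65. The deposited signal there is the standard deviation of the spot, so that the value stands for noise and does not measure the gene's level. Against the lowest signal of a detected probe on that array, the signal of mouse 11 on feed G was 14912-fold higher. That lowest signal is not the limit of the Fabp6 spot, so that the fold is not a lower bound. The SD of Fabp6, 4.91 (n = 9), was larger than that of 99.99% of the genes tested. The widest gaps between neighbouring mice were 3.62, 3.42 and 2.84 within a range of 14.84. The gap of 3.42 and the range include mouse 8 on feed B, whose value stands for noise. Among the 8 mice with Fabp6 detected, the widest gap, 3.62, lay between 15.81 (mouse 7 on feed B) and 12.19 (mouse 3 on feed K). Mouse 10 on feed B and mouse 11 on feed G were also above this gap. Whether the mice form separate clusters was not tested. In whole-tissue RNA, fewer cells of a type and less RNA per cell cannot be told apart.

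**Figure D1:**
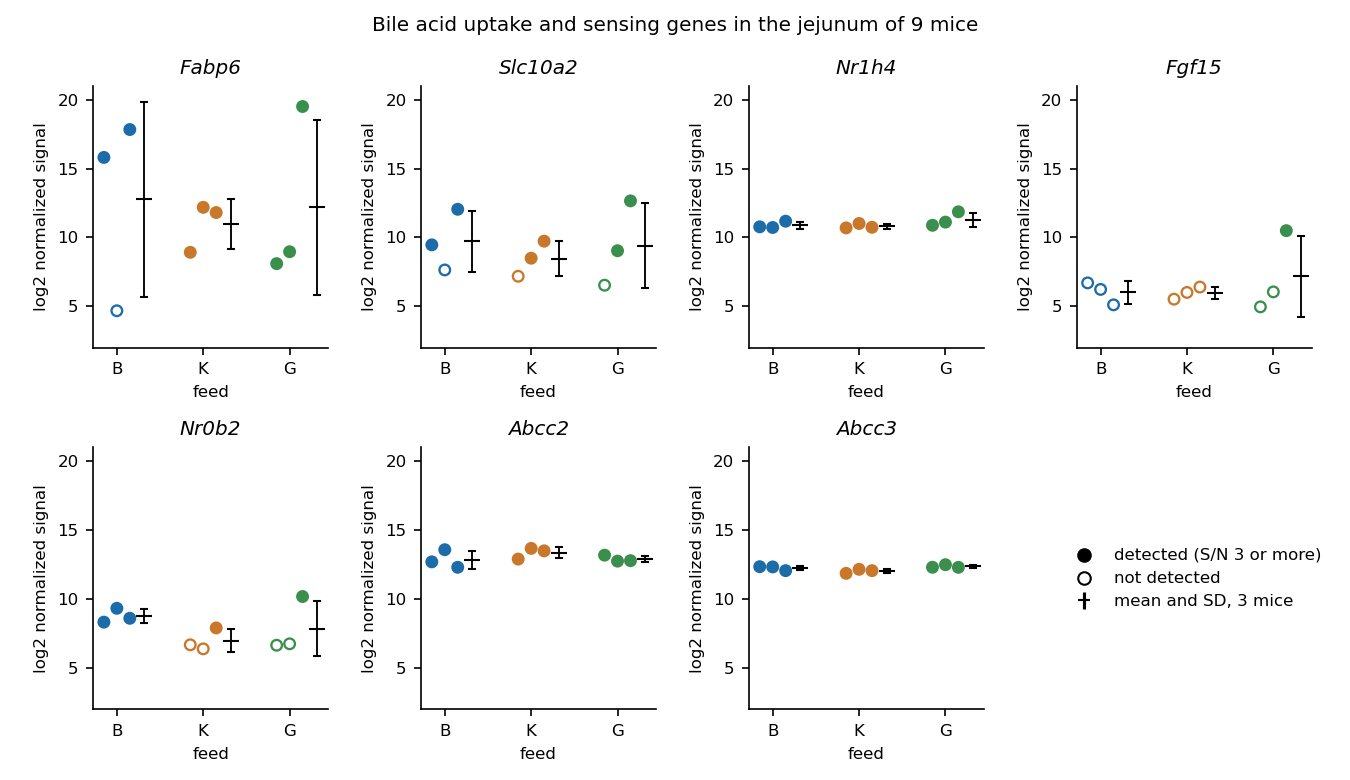
Log2 normalized signal (y axis) of the 7 bile acid genes by feed (x axis), 1 point per mouse, filled where the gene was detected and open where it was not, with the mean and SD of 3 mice beside each feed. Fabp6 runs from 4.67 to 19.51 within and across feeds, whereas Nr1h4, Abcc2 and Abcc3 have ranges of 1.37 or less.

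Slc10a2, the uptake transporter, was also spread widely. With mice in the same order, its log2 signal was 9.46, 7.64 and 12.05 on feed B, 7.18, 8.49 and 9.73 on feed K, and 6.53, 9.03 and 12.66 on feed G. It was detected in 2 of 3 mice on each feed, and the mouse below detection was mouse 8 on feed B, mouse 1 on feed K and mouse 4 on feed G. These were the mice with the lowest Fabp6 on each feed. The order of the mice was the same for both genes on feeds B and G, and on feed K the upper 2 mice changed places.

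Nr1h4, the bile acid receptor, varied much less. Its log2 signal was 10.77, 10.72 and 11.18 on feed B, 10.69, 11.01 and 10.74 on feed K, and 10.88, 11.11 and 11.86 on feed G, again in that order. Mouse 11 on feed G, which had the highest Fabp6, was 0.68 above the next mouse, and the other mice lay between 10.69 and 11.18.

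Among the targets of the receptor, Nr0b2 was detected in 5 mice and Fgf15 in 1. Nr0b2 was at 8.32, 9.32 and 8.59 on feed B, where it was detected in all 3 mice. On feed K it was at 6.67, 6.37 and 7.89 and on feed G at 6.64, 6.74 and 10.18, each time with 1 mouse detected, the highest. Fgf15 was detected in 1 of 9 mice, mouse 11 on feed G, at a log2 signal of 10.49 and a signal-to-noise ratio of 23.5. In the other mice its values lay between 4.96 and 6.70, at noise. Mouse 11 was 13.9-fold above the highest of these, which is not a lower bound, since values at noise do not limit the gene's level. With 1 mouse detected, Fgf15 did not enter the tests. Mouse 11 on feed G had the highest signal of Fabp6, Slc10a2, Nr1h4, Fgf15 and Nr0b2. Genes outside the members, such as Fabp2 and Apoa1, were also highest in this mouse, and Fabp1 was lowest there. The share of all genes that were highest in this mouse was not counted, so that no trait of the members is read from it.

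The export pumps were detected in all 9 mice. Abcc3 varied little, and Abcc2 about as much as a gene in the middle of the distribution. Abcc2 was at 12.69, 13.58 and 12.30 on feed B, 12.90, 13.67 and 13.49 on feed K, and 13.18, 12.75 and 12.78 on feed G. Abcc3 was at 12.34, 12.33 and 12.05 on feed B, 11.86, 12.15 and 12.05 on feed K, and 12.30, 12.49 and 12.30 on feed G. The whole range of Abcc2 was 2.59-fold, and its SD of 0.47 (n = 9) was larger than that of 55.4% of the genes tested. For Abcc3 the range was 1.55-fold, and the SD of 0.19 was larger than that of 12.0%. The highest signals of these pumps were in mice with a middle or low Fabp6, Abcc2 in mouse 3 on feed K and Abcc3 in mouse 8 on feed G.

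The exporter subunits Slc51a and Slc51b, which are not among the 7, complete the route through the cell. Slc51a was at 14.37, 14.35 and 14.46 on feed B, 13.68, 13.51 and 14.01 on feed K, and 13.56, 13.31 and 14.50 on feed G. Slc51b was at 15.61, 15.17 and 16.58 on feed B, 15.62, 15.45 and 15.39 on feed K, and 14.77, 14.81 and 16.06 on feed G. Both were detected in all 9 mice. For Slc51a, after quantile normalization, the 3 mice of feed B lay above all mice but mouse 11 on feed G. In the deposited signals mouse 8 on feed B had 13633 and mouse 3 on feed K 17185, with array medians of 147.0 and 153.8. The place of mouse 8 thus depended on the normalization.

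Whether the feed moved these genes was tested in limma, by a moderated F test of the 3 feed means adjusted after Benjamini and Hochberg for 9793 genes. Of the 6 members tested, 0 passed an adjusted p of 0.05, beside 0% of all genes, and 0 were below an unadjusted p of 0.05, beside 5.42% of all genes. The mean log2 signal of Fabp6 was 12.77 ± 7.09 (SD, n = 3) on feed B, 10.97 ± 1.79 on feed K and 12.19 ± 6.35 on feed G (limma, adjusted p = 0.985). Slc10a2 was at 9.72 ± 2.21 (SD, n = 3), 8.47 ± 1.27 and 9.41 ± 3.08 on feeds B, K and G (limma, adjusted p = 0.954). The adjusted p of the other 4 was 0.903 each. For Nr0b2 the means were 8.74 ± 0.52 (SD, n = 3), 6.98 ± 0.81 and 7.85 ± 2.01. The test did not pass (limma, adjusted p = 0.903). On feed K the values of mouse 1 and mouse 3 were below detection, at signal-to-noise ratios of 1.32 and 1.04. Over all genes limma called 0, with 531 below an unadjusted p of 0.05 and a smallest adjusted p of 0.356, for 4933432P15Rik. An exact permutation test of the same statistic over 280 splits of the mice had 496 genes below an unadjusted p of 0.05. Its smallest possible p is 0.00357, so that it could hardly call any gene after adjustment, and its count of 0 carries no weight.

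The next question was which genes follow Fabp6 over the mice. For each of 9793 other genes the log2 signal was fitted on that of Fabp6 with limma over the 9 mice, and Pearson's r and Spearman's rho were computed with two-sided exact permutation tests over all 362880 orders of the mice. After adjustment over all genes, 0 genes passed with a positive slope (0% called, and 397, or 4.05%, below an unadjusted p of 0.05) and 0 with a negative slope (0% called, and 503, or 5.14%, below an unadjusted p of 0.05). Of the 5 members tested against Fabp6, 0 passed and 2, Slc10a2 and Nr1h4, were below an unadjusted p of 0.05 with a positive slope. Among the 9692 genes with a value in every mouse, the exact permutation test of r also called 0 genes either way (313 positive and 625 negative below an unadjusted p of 0.05), and that of rho called 0 (268 and 569). None of the relations below passed after adjustment.

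Slc10a2 came closest to Fabp6 among the members. Its r with Fabp6 was 0.88 and its rho 0.87 over 9 mice (two-sided exact permutation p = 0.00179 and 0.00451, or 0.252 and 0.331 adjusted over the genes tested). Its slope was 0.37 units of log2 signal per unit of Fabp6, with a standard error of 0.07 (limma, adjusted p = 0.201). Only 10 of the genes tested had a higher r. Without the 2 mice farthest from the median of Fabp6, mouse 11 on feed G and mouse 8 on feed B, r was 0.85 over 7 mice. Leaving out each mouse in turn gave r between 0.82 and 0.91, and with the feed as a term, which compares mice within feeds, the partial r was 0.88 (limma, adjusted p = 0.261). In 3 of the 9 mice Slc10a2 was not detected, so that its lower end rests on noise.

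**Figure D2:**
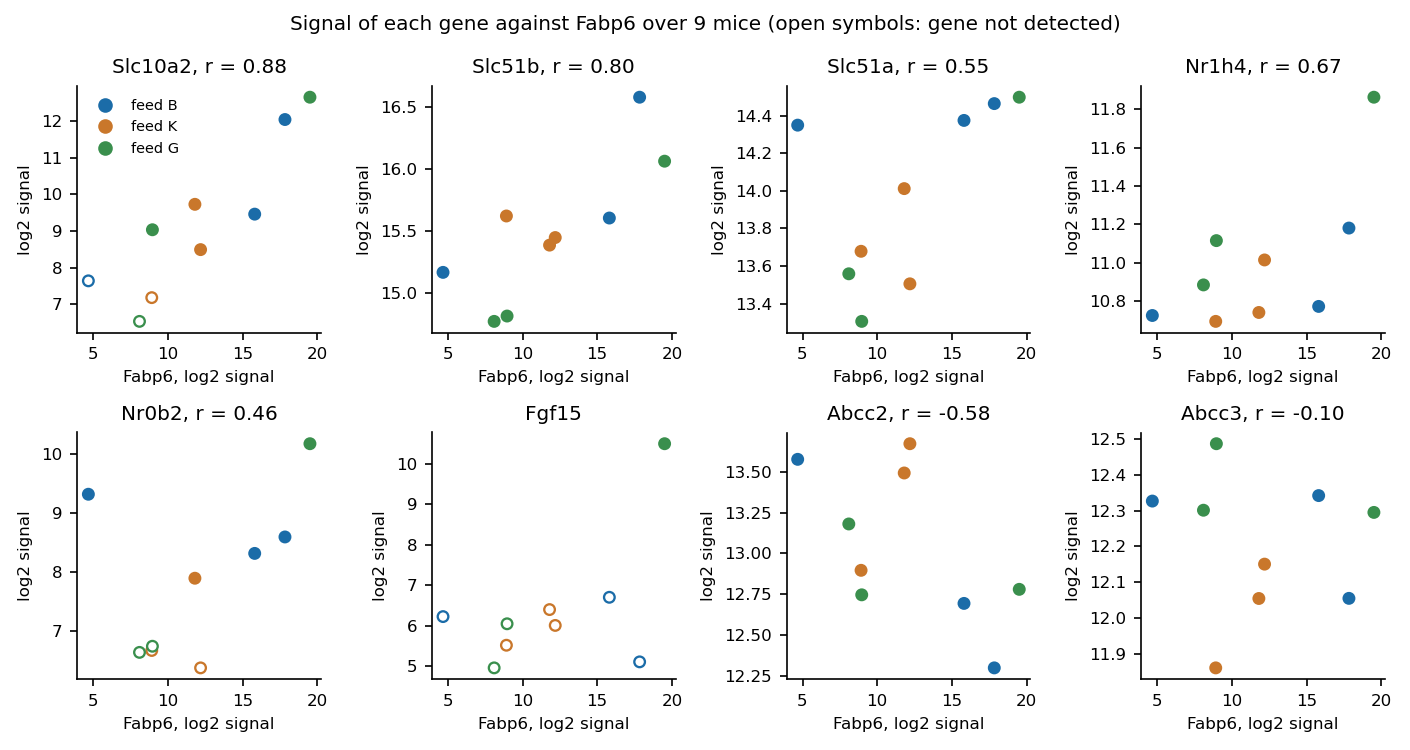
Log2 signal of 8 genes (y axes) against log2 signal of Fabp6 (x axes), 1 point per mouse, coloured by feed and open where the gene was not detected. Slc10a2 and Slc51b are higher in the mice with more Fabp6. Mouse 8 on feed B, at the left, has the lowest Fabp6 beside, after quantile normalization, a high Nr0b2 and Slc51a.

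Nr1h4 had an r of 0.67 and a rho of 0.70 (exact permutation p = 0.0346 and 0.0433; limma, adjusted p = 0.534). That value rested on mouse 11 on feed G, since without the 2 farthest mice r was 0.29, and without mouse 11 alone it was 0.43. Within feeds the partial r was 0.81 (limma, adjusted p = 0.483).

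For Nr0b2 and Slc51a, mouse 8 on feed B decided the value. Nr0b2 had an r of 0.46 and a rho of 0.37 over 9 mice (exact permutation p = 0.213 and 0.336; limma, adjusted p = 0.633). Without mouse 8 on feed B, r was 0.90 (limma, adjusted p = 0.333), without mouse 11 on feed G it was 0.14, and without both, which are the 2 farthest mice, 0.85. Slc51a had an r of 0.55 and a rho of 0.57 (exact permutation p = 0.127 and 0.121; limma, adjusted p = 0.591). Its r was 0.91 without mouse 8 on feed B, 0.41 without mouse 11 on feed G, 0.45 without mouse 10 on feed B and 0.88 without the 2 farthest mice. With each array scaled to its median it was 0.86. In mouse 8 on feed B, whose array had the lowest share of probes detected (33.7%), neither Fabp6 nor Slc10a2 was detected. There Nr0b2 was the second highest of the 9 mice, at a signal-to-noise ratio of 3.43. After quantile normalization Slc51a, at 14.35, lay close to the highest value of 14.50, that of mouse 11 on feed G. The deposited Slc51a signals of these 2 mice were 13633 and 31100, with array medians of 147.0 and 146.9, so that this closeness depended on the normalization. Slc51b had an r of 0.80 and a rho of 0.75 (exact permutation p = 0.00997 and 0.0255; limma, adjusted p = 0.421), with r between 0.76 and 0.84 when each mouse was left out in turn and of 0.84 without the 2 farthest.

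For the export pumps r was not above 0. Abcc2 had an r of -0.58 and a rho of -0.52 (exact permutation p = 0.102 and 0.162; limma, adjusted p = 0.567). Its r was -0.45 without the 2 farthest mice, -0.31 with each array scaled to its median and -0.38 with the series table. Abcc3 had an r of -0.10 and a rho of -0.13 (exact permutation p = 0.808 and 0.744; limma, adjusted p = 0.956), and -0.11 without the 2 farthest mice. Its sign depended on the processing, since with each array scaled to its median r was 0.25.

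**Figure D3:**
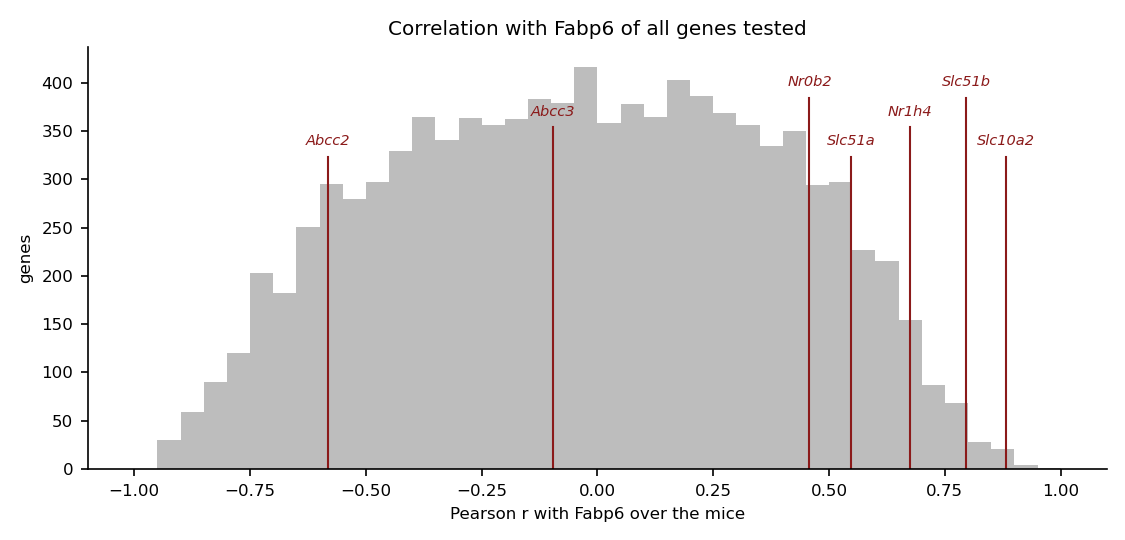
Number of genes (y axis) by Pearson r with Fabp6 over the mice (x axis) for all genes tested, with vertical lines at the 5 members and at Slc51a and Slc51b. Slc10a2 at 0.88 and Slc51b at 0.80 lie in the upper tail, and Abcc3 at -0.10 lies near the middle.

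The genes most like Fabp6 were taken as the 10 with the highest r over the 9 mice among genes with a range of at least 1 on the log2 scale. Oact1, now Mboat1 and a lysophospholipid acyltransferase, had the highest r of 0.95 and a rho of 0.98 (exact permutation p = 1.38e-05, or 0.107 adjusted; limma, adjusted p = 0.134). Its log2 signal was 9.25, 7.38 and 11.05 on feed B, 8.15, 8.35 and 8.73 on feed K, and 7.85, 8.35 and 11.25 on feed G. The same 3 mice that led for Fabp6 led for Oact1, and mouse 8 on feed B was the lowest for both. Next came Plekhm1, a protein of late endosomes and lysosomes, with an r of 0.93, the Hippo pathway kinase gene Stk3 with 0.92, and Dfna5h, now Gsdme, a gasdermin, with 0.90. Cart, now Cartpt, which encodes a neuropeptide, had an r of 0.89 but was detected in 3 mice only. Psmd5, a chaperone of proteasome assembly, Slc10a2 and C730026E21Rik, now Mars2, had 0.88 each. Plekhm1 was detected in 7 mice, and Slc10a2 and C730026E21Rik in 6 each. The acute-phase gene Saa2 had 0.87. Of these 10, 9 are reported. In the mice without the 2 farthest, r of these 9 lay between 0.73 and 0.92, and with each array scaled to its median it lay between 0.70 and 0.92.

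At the other end, the 5 lowest r belonged to Slc37a4, which encodes the glucose 6-phosphate transporter, with -0.94, and to Pck1, Mro, 1500019O16Rik and Mir16, now Gde1, with -0.93 each. With each array scaled to its median these were -0.66 for Slc37a4, -0.84 for Pck1 and Mro, -0.90 for 1500019O16Rik and -0.74 for Mir16. 1500019O16Rik was detected in 5 mice only. It was at 5.10 in mouse 10 on feed B and 5.46 in mouse 11 on feed G. These values lay below the lowest signal of a detected probe on those arrays, 5.99 and 6.08, so that its lower end rests on noise. Pck1 encodes the cytosolic phosphoenolpyruvate carboxykinase of gluconeogenesis. Its log2 signal was 12.58, 13.81 and 11.85 on feed B, 13.68, 13.19 and 13.34 on feed K, and 14.18, 13.79 and 10.98 on feed G. The 3 mice with the most Fabp6 had the least Pck1, and no other mouse lay between them. Its rho was -0.97 (exact permutation p = 6.34e-05 for r and 0.000165 for rho), its adjusted p in limma 0.134, and it passed without mouse 8 on feed B (limma, adjusted p = 0.0490).

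**Figure D4:**
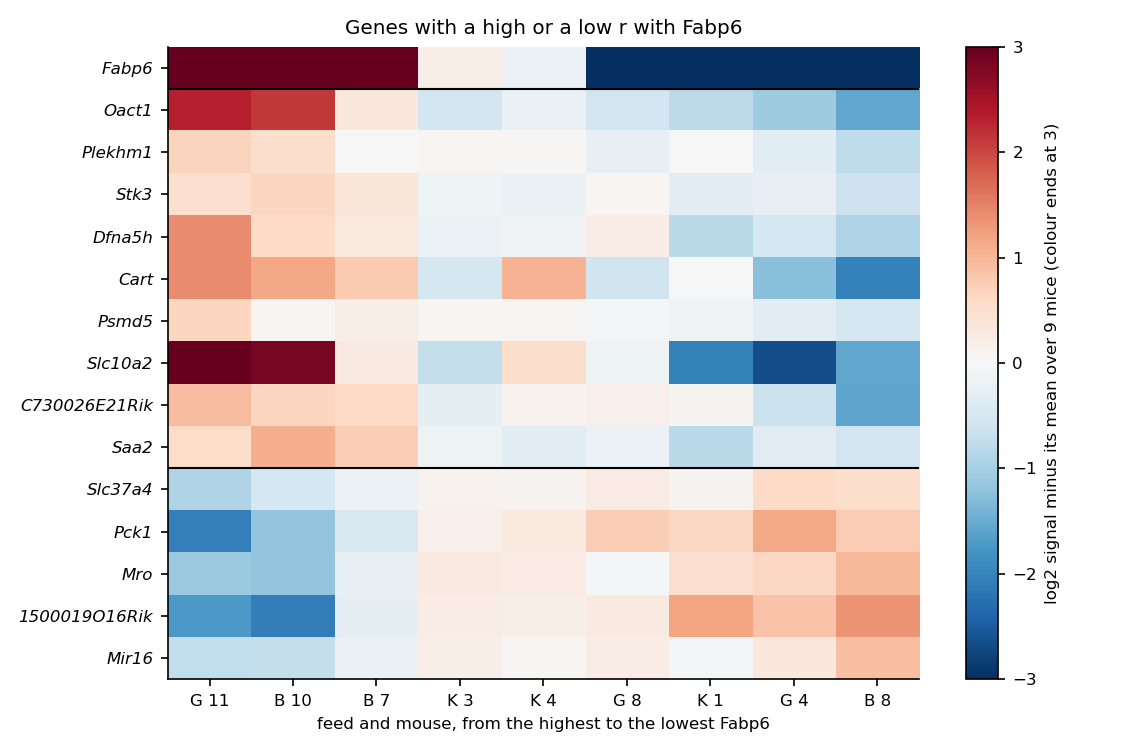
Log2 signal minus the gene's mean over 9 mice (colour, which ends at 3 either way) for Fabp6, 9 of the 10 genes with the highest r and the 5 with the lowest (rows), with the mice (columns, feed letter and number) in order of falling Fabp6. Oact1 and Slc10a2 are highest in mouse 11 on feed G and mouse 10 on feed B, where Pck1 and 1500019O16Rik are lowest. The values of 1500019O16Rik in these mice are at noise.

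Other genes of bile acid handling were described from 4 lists, beside the 7 members. Of their 33 genes, 31 had a probe, and 24 could be tested. After adjustment 0 of the 24 passed in either direction. Below an unadjusted p of 0.05 there were 3 with a positive and 3 with a negative slope, against 4.05% and 5.14% of all genes, and the median r was -0.01, against -0.03 over all genes. The 3 with a positive slope, named as are the next 3 after their values were seen, were Slc51b, the efflux pump gene Abcc1 (r = 0.72, detected in 3 mice) and Hnf4a, a nuclear receptor of the enterocyte (r = 0.70). The 3 with a negative slope were Cyp27a1, a sterol hydroxylase of bile acid synthesis (r = -0.80), and the detoxifying cytochromes Cyp3a11 (r = -0.70) and Cyp2b10 (r = -0.78). With each array scaled to its median the r of these 3 were -0.54, -0.68 and -0.78. Without the 2 farthest mice they were -0.94, -0.41 and -0.42, so that those of both cytochromes leaned on these 2 mice. By list, the median r was 0.45 for 6 transporters, -0.10 for 8 receptors and regulators, -0.01 for 5 genes of synthesis and conjugation, and -0.39 for 5 genes of detoxification. With each array scaled to its median, which moved the median r of all genes from -0.03 to 0.18, these medians were 0.71, 0.17, 0.12 and 0.08, so that the sign of the last 3 depends on the scaling. Among the brightest transporters, the efflux pump gene Abcg2 had an r of 0.34, which was 0.92 without the 2 farthest mice and 0.74 with median scaling. The efflux pump gene Abcb1a had an r of 0.27 and of -0.54 without the 2 farthest mice. Of the receptors, Nr1i3 (CAR) had an r of -0.56 and Nr1i2 (PXR) of -0.37, or -0.34 and 0.06 with median scaling. Rxra, the partner of these receptors and of FXR, had an r of -0.000875, or 0.24 with median scaling. Cyp7a1, the rate-limiting enzyme of bile acid synthesis in the liver, had an r of -0.01, the hydroxylase gene Cyp7b1 of 0.34 (detected in 3 mice), and Amacr, a racemase of bile acid synthesis, of -0.65, or -0.33 with median scaling. The conjugating enzymes Ugt1a1 and Sult2b1 had an r of -0.27 and -0.39, and of 0.08 and 0.10 with median scaling. The sulfotransferase gene Sult2a1 had an r of 0.06, or 0.23 with median scaling.

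Fabp6 and Slc10a2 are genes of the distal small intestine, so markers of the proximal and the distal small intestine were set beside them. Of 17 proximal genes tested, 12 had an r below 0 with Fabp6 and the median r was -0.62, against -0.03 over all genes, of which 47.9% had an r above 0. After adjustment 0 passed. Below an unadjusted p of 0.05 there were 8 with a negative and 1 with a positive slope, beside 5.14% and 4.05% of all genes. Among those 8, named after their values were seen, were Apoc3, an apolipoprotein gene (r = -0.88), and Khk, the ketohexokinase gene (r = -0.86, or -0.42 with median scaling). Fabp1, the liver-type fatty acid binding protein (r = -0.82), Slc2a2, a glucose transporter (r = -0.82), and Slc2a5, the fructose transporter (r = -0.78), were others. With median scaling these r were -0.83, -0.58 and -0.63. Without the 2 farthest mice r was -0.79 for Apoc3, -0.73 for Khk, -0.55 for Fabp1, -0.97 for Slc2a2 and -0.82 for Slc2a5. The gene with the positive slope was Cck, the cholecystokinin gene (r = 0.81 over the 7 mice in which its spot had not failed). Of the brightest genes of the list, the apolipoprotein gene Apoa1 had an r of 0.25, Apoa4 of -0.79 and Rbp2, a retinol binding protein, of -0.45. With median scaling these were 0.08, -0.48 and -0.26. Gata4, which marks the proximal and middle small intestine, had an r of 0.02, or 0.17 with median scaling. The remaining proximal genes with an r above 0 were Sct (r = 0.58) and Slc40a1 (r = 0.53), or 0.56 and 0.63 with median scaling. Of the 6 distal genes tested, which include Slc51a and Slc51b, 5 had an r above 0 and the median was 0.55. The hormone genes Pyy (r = 0.57) and Gcg (r = 0.55) were among those 5. After adjustment 0 passed. Below an unadjusted p of 0.05 there was 1 with a positive slope, Slc51b, and 1 with a negative slope, Amn, beside 4.05% and 5.14% of all genes. Nts, the neurotensin gene, had an r of 0.24, and Amn, of the cobalamin receptor, of -0.75, or -0.41 with median scaling. Without the 2 farthest mice r was 0.36 for Nts and -0.34 for Amn.

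The summed linear signal of the 17 proximal genes, without Cck in the mice where its spot failed, was between 1304697 and 2293708 on feed B, 1931590 and 2205784 on feed K, and 1638417 and 2063320 on feed G, and that of the 6 distal genes between 78266 and 143412, 76275 and 79968, and 58740 and 106383. The highest distal sums were those of mouse 10 on feed B and mouse 11 on feed G, the 2 mice with the most Fabp6. All 6 distal genes were detected in every mouse. The distal sum is carried by its brightest genes, Slc51b and then Slc51a, so that it mainly repeats their relation to Fabp6 given above. The proximal sums did not mirror the distal ones. Mouse 11 on feed G had the highest proximal sum of its feed, while mouse 10 on feed B, at 1439987, had a low one. Apoa1, the brightest proximal gene, weighs most in these sums and was highest in mouse 11, at a log2 signal of 20.40. Of the next brightest genes, Fabp1 was lowest of all mice there, at 16.40, and Apoa4 and Rbp2 were at neither end. A high sum thus does not mean that the proximal genes were high together. Where along the intestine each segment was cut was not measured, and the part of position in the spread of Fabp6 was not tested. With each array scaled to its median, the median r was -0.36 for the proximal list and 0.58 for the distal list, beside 0.18 over all genes.

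**Figure D5:**
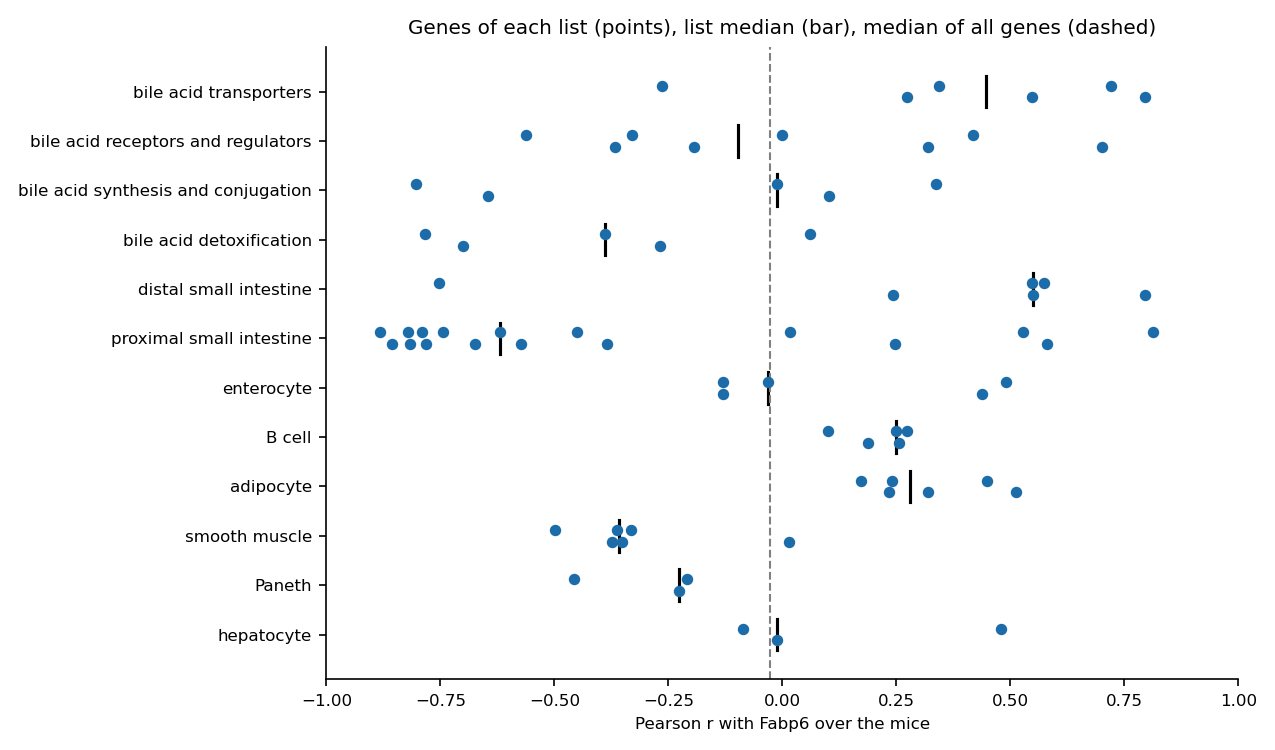
Pearson r with Fabp6 over the mice (x axis) for each gene tested in 12 lists (y axis), with a bar at the median of each list and a dashed line at the median of all genes. The proximal list has its median at -0.62 and the distal list at 0.55, and each holds genes of both signs.

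Other cell types and measures of the arrays were set against Fabp6 in the same way, and 0 genes of these lists passed. The median r was -0.03 for 5 enterocyte genes, 0.25 for 5 B cell genes, 0.28 for 6 adipocyte genes, -0.36 for 6 smooth muscle genes, -0.23 for 3 Paneth cell genes and -0.01 for 3 hepatocyte genes. With median scaling the medians of the enterocyte, smooth muscle and hepatocyte genes were 0.20, 0.03 and 0.12, above 0. The share of probes detected had an r of 0.25 with Fabp6 and a rho of 0.27 (exact permutation p = 0.516 for r), and -0.50 without the 2 farthest mice. The median signal of the array had an r of -0.22 and a rho of -0.20 (exact permutation p = 0.570 and 0.613), and the number of failed spots an r of 0.20 and a rho of 0.37 (exact permutation p = 0.616 and 0.336). Without the 2 farthest mice these r were -0.35 and -0.27. Adjusted over these 3 relations, the p-values were between 0.613 and 0.616.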

How the data were processed

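For each of 9 arrays the authors deposited the scanner's table, with a background-corrected, spatially normalized signal intensity per spot, its standard deviation, a signal-to-noise ratio score and a quality flag. They also deposited a table of the series, also an intensity, identical to the assay-normalized signal in all 297108 values. Its column medians were between 1.06 and 1.53, it is linear and not centred, and its divisor is not known. The submitters' processing notes name RMA. Where the signal-to-noise ratio was under 1 (119010 spots), the signal column holds the spot's standard deviation. The labels give RNA prepared with Trizol and RNeasy columns, the methods Qiazol and miRNeasy.

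After removal of failed spots (flag over 5000), the deposited signals of 33012 probes were quantile normalized and log2 transformed, and probes of a gene were averaged, as in the methods. Of the probes, 17302 carried a symbol, 255 were named by RefSeq accession (GRCm38.p6 table) and 15455 stayed unnamed. Genes detected on at least 3 arrays were tested with limma 3.58.1 in R 4.3.3, with Benjamini-Hochberg adjustment at 0.05. Exact permutations and summaries used scipy 1.17.1, pandas 2.3.3 and numpy 2.4.6 in Python 3.11.15. The fits were tested on simulated data. The number of arrays limits the precision, and RNA of 1 mouse was on each.

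The members, marker lists and tests were chosen with earlier results of these data known. Genes named are the members, Slc51a, Slc51b, the 4 brightest genes of the lists on bile acids and on gut regions, the 10 genes with the highest and the 5 with the lowest r among genes with a log2 range of at least 1, and the gene with the smallest adjusted p of each test, of which 1 gene is not reported here. Apart from these, Gata4, Sct, Slc40a1, Pyy, Gcg and the genes below an unadjusted p of 0.05 in the lists were named after their values were seen. Alternatives tried were arrays scaled to their median, the series table, 1 probe per gene (the brightest), failed spots kept, low signals raised to percentile 5, other detection filters, unmoderated and permutation tests, the feed as a term and leaving out each mouse. Using file symbols only, and leaving out spots under a signal-to-noise ratio of 1, were alternatives chosen after seeing the data.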

Additional observations from a re-analysis of the deposited data

Results flagged for a closer look

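Of 23 genes examined over the 9 mice (the members, Slc51a, Slc51b and the genes most and least like Fabp6), 2 had a mouse far from the others. The distance from the outermost mouse to the next one was divided by the gene's range and set against Dixon's 95% limit for 9 values, which chance passes in about 1 of 20 groups. For Nr1h4 the ratio was 0.584 and for Fgf15 0.685, both for mouse 11 on feed G as the highest. That mouse also had the highest Fabp6, Slc10a2 and Nr0b2. The other Fgf15 values are noise, so that its ratio says only that the gene was detected in this mouse.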

How the results depend on the processing

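No paired analysis was possible because the mouse numbers name mice within a feed, and any pair of feeds shares at most 1 number. A slide or scan batch as a block was not run, as each array has its own barcode and the files name no batch of several arrays. The number of genes called over the feeds was 0, but 1 with genes detected on all 9 arrays, 1 with the unmoderated F test, 3 without spots at noise (a signal-to-noise ratio under 1), and 0 to 3 when each mouse was left out, with 3 without mouse 10 on feed B. The number with a negative slope on Fabp6 was 0, but 1 (Pck1, limma, adjusted p = 0.0403) without spots at noise, and 0 to 1 when each mouse was left out, with 1 (Pck1, limma, adjusted p = 0.0490) without mouse 8 on feed B. The number with a positive slope was 0 in every alternative run. The r of Abcc3 changed sign to 0.25 with median scaling, 0.0341 with the series table and 0.0416 without spots at noise, and ran from -0.354 to 0.0447 when each mouse was left out. Leaving out spots at noise removes mouse 8 on feed B from the fits on Fabp6, so that for Pck1 and Abcc3 it is the same fit as leaving out that mouse, with the p adjusted over another number of genes. The cause of the other changes was not tested. Median scaling moved the median r over all genes from -0.03 to 0.18 and the r of Slc51a from 0.55 to 0.86. No member passed after adjustment in any alternative, and the lowest adjusted p of Slc10a2 over them was 0.194 (limma) and the highest 0.502. With 9 mice, signals near background in Slc10a2, Nr0b2 and Fgf15 limit what their relations can show.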
